A study of Mus musculus with 6 samples.

Results

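Gene expression was compared between mouse embryonic stem cells carrying a short hairpin RNA (shRNA) against Carm1 and cells carrying a scramble shRNA, both after 48 h with 1 µM retinoic acid (RA). The comparison used 2 of the 6 libraries of the study, 1 for each shRNA line, and 11513 of 20460 genes had a mean of at least 1 FPKM over those 2 libraries and were compared. FPKM are reads scaled to transcript length and to library depth. Differences are given on the scale log2(FPKM + 1), where 1 stands for 2-fold and where the change of low genes is understated.

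All libraries came from J1 cells, a male line of strain 129S4/SvJae, which were kept on gelatin with the cytokine LIF in the medium, also during RA treatment. The 3 lines were wild-type, scramble shRNA and Carm1 shRNA, and each was sampled once with RA and once with the ethanol vehicle. Each shRNA was represented by 1 line and each group by 1 library, so no replicate error exists, no test was possible, and the gap between the scramble and wild-type lines with RA served as the yardstick for how far lines differ. That yardstick shares the scramble library with the comparison, so the 2 sets of differences are given side by side and are not correlated.

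CARM1, also called PRMT4, is an enzyme that methylates arginines of histone H3 and of other proteins, and it is recruited to promoters and enhancers by nuclear receptors through p160 coactivators together with the acetyltransferases p300 and CBP. RA binds receptors of the RAR family, which pair with RXR on DNA and switch on genes for RA handling and the Hox genes. In embryonic stem cells RA drives exit from the pluripotent state, and genes such as Nanog and Fgf4 belong to that state.

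The targeted gene, Carm1, lies on chromosome 9 from 21351338 to 21393909 in mm9 coordinates. With RA its level was 6.73 FPKM in the Carm1 shRNA line, 29.9 FPKM in scramble and 29.5 FPKM in wild-type. The Carm1 shRNA library held 22.6% of the scramble level, a difference of -1.996, while wild-type differed from scramble by -0.02. With vehicle the levels were 8.49, 36.1 and 37.0 FPKM in the same order of lines, so Carm1 was low in the line labelled for it under both treatments. Yipf2, a neighbour whose listed span overlaps the end of Carm1, stood at 13.7, 26.2 and 24.5 FPKM with RA in the Carm1 shRNA, scramble and wild-type lines. Its reads and those of Carm1 in the shared stretch cannot be told apart in these values. The other arginine methyltransferases and their partners were near the scramble level: of 12 listed genes compared, Carm1 alone passed 2-fold and the rest lay between -0.32 and 0.37.

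The 6 libraries summed to 505264 to 537543 FPKM over the genes kept, and the value of a read in low genes put their depth at about 24800000 to 34300000 reads, with 33500000 in the Carm1 shRNA and 30500000 in the scramble library with RA. The 30 genes named by size, a choice that leaves out symbols shaped like clone names and so passes over C3, had an estimated 161 reads or more in the higher of these libraries. Markers of embryonic stem cells were high in all lines with RA. Their 6 markers summed to 3841 FPKM in the Carm1 shRNA line, 2492 FPKM in the scramble line and 3177 FPKM in the wild-type line, and all 6 were above scramble in the Carm1 shRNA line. Zfp42 (388 against 445 FPKM) and Utf1 (80.9 against 101 FPKM) were below wild-type there, and Dppa5a had the largest gap above it (1895 against 1364 FPKM). The summed level of 6 markers of extraembryonic endoderm was 15.5, 21.0 and 17.6 FPKM in the Carm1 shRNA, scramble and wild-type lines, of 4 neural markers 133, 95.8 and 112 FPKM, of 4 mesoderm markers 2.03, 4.87 and 5.36 FPKM, of 3 trophoblast markers 4.13, 3.04 and 1.74 FPKM and of 5 fibroblast markers 5.42, 6.75 and 3.43 FPKM. In the Carm1 shRNA line 1 endoderm marker was above and 5 below scramble, 1 neural marker was above and 3 below, 1 mesoderm marker was above and 3 below, 1 trophoblast marker was above and 1 below, and 2 fibroblast markers were above and 2 below. The higher neural sum came from Tubb3, at 117 FPKM against 72.0 FPKM in scramble. Elf5 and Postn, defining markers of trophoblast and fibroblasts, were listed at 0 in both shRNA libraries with RA. In such bulk samples, fewer cells of a type and less RNA per cell cannot be told apart, and the part of these markers in the results that follow was not tested. The wild-type line also stood apart from both shRNA lines: 8 Y-linked genes summed to 42.7 FPKM in it with RA, against 0.143 in the Carm1 shRNA and 1.41 in the scramble library, and the imprinted gene Mest stood at 207, 1.91 and 1.82 FPKM in the wild-type, Carm1 shRNA and scramble libraries.

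With RA, 39 genes (0.339% of those compared) were at least 2-fold higher and 37 (0.321%) at least 2-fold lower in the Carm1 shRNA line than in the scramble line, 76 (0.66%) in all. The yardstick was wider. Between the wild-type and scramble libraries with RA, 96 genes (0.836% of 11486) were 2-fold higher and 84 (0.731%) lower in wild-type, or 180 in all (1.57%). Between the Carm1 shRNA and wild-type libraries with RA, 177 genes (1.54%) were higher and 105 (0.915%) lower in the Carm1 shRNA line, 282 of 11475 in all (2.46%). Fewer genes thus passed 2-fold here than between the control lines, and the SD of the differences over genes was 0.258 for the Carm1 shRNA line and 0.345 for the wild-type line, both against scramble. This yardstick also holds whatever sets the wild-type line apart from both shRNA lines, as seen above for Y-linked genes and Mest. The lower count therefore does not size the effect of the Carm1 shRNA. At the edges of the threshold stood Hmga2, at -1.01, and Ttpa, at 1.01, just inside, and Dsp, at -0.998, and Mgat4c, at 0.999, just outside; all 4 were picked by that place alone. Another scaling moved the split of calls: with quantile normalization of the 6 libraries, 59 genes were higher and 37 lower.

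**Figure D1:**
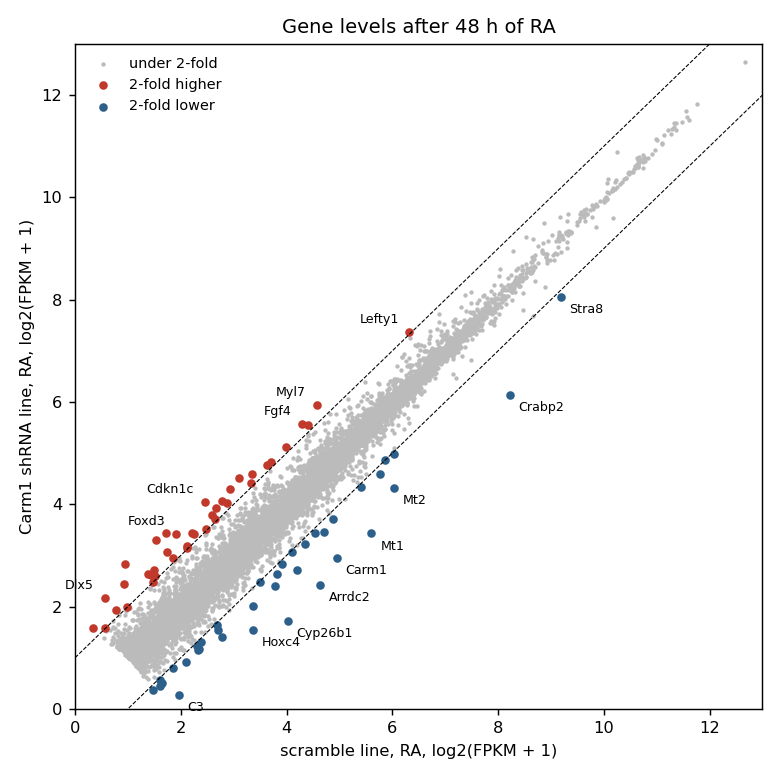
Levels of the 11513 genes compared in the scramble line (horizontal axis) and the Carm1 shRNA line (vertical axis) after RA, both as log2(FPKM + 1), 1 library each; dashed lines mark a 2-fold difference. The 39 red genes lie above and the 37 blue genes below these lines, with Crabp2 and Stra8 the lower genes at the highest levels and Lefty1 the higher gene at the highest level.

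Some genes of the RA handling group were among the most reduced. This group covers the enzymes that make and break down RA, the proteins that carry retinoids and the receptors, and the list also holds Stra8, an RA-induced gene that is counted among germ cell genes too. Of 28 listed genes 21 were compared, 5 were at least 2-fold lower in the Carm1 shRNA line (among them Cyp26b1, Crabp2, Stra6 and Stra8) and 0 were 2-fold higher. Over all genes compared, 0.321% were 2-fold lower and 0.339% 2-fold higher.

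Cyp26b1, an enzyme that breaks down RA, stood at 2.29 FPKM with RA in the Carm1 shRNA line, 15.2 FPKM in the scramble line and 11.3 FPKM in the wild-type line. It was near absent with vehicle, at 0.0209, 0.0272 and 0 FPKM in the same order. Its difference from scramble, -2.30, was the largest decrease of any gene compared, and both control libraries lay above the Carm1 shRNA library. Crabp2, which carries RA to its receptors in the nucleus, stood at 69.6, 297 and 126 FPKM with RA in the Carm1 shRNA, scramble and wild-type lines, and at 1.57, 1.86 and 2.37 FPKM with vehicle. The difference from scramble was -2.08, but the wild-type library also lay below scramble, by 1.23 on the log2 scale. Stra6, the membrane receptor that takes up retinol, stood at 19.08, 41.43 and 23.61 FPKM with RA in the same order of lines. Here the Carm1 shRNA library was lowest and the wild-type library was closer to it than to scramble. Stra8, a germ cell gene that RA induces and that starts meiosis, stood at 266, 580 and 437 FPKM with RA. It was lower in the Carm1 shRNA line with vehicle too, at 4.29 FPKM against 32.8 and 23.4 FPKM. The RA response of Stra8, RA minus vehicle within a line, was thus largest in the Carm1 shRNA line, at 5.66 against 4.10 and 4.16.

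Other RA target genes differed less. Cyp26a1, the main RA-degrading enzyme of early embryos, stood at 185, 235 and 111 FPKM with RA in the Carm1 shRNA, scramble and wild-type lines, a difference of -0.35 from scramble and a level above wild-type. Rarb, the RA receptor that RA itself induces, stood at 14.7, 17.8 and 12.1 FPKM, a difference of -0.27. Dhrs3, which turns retinal back into retinol, stood at 48.2, 61.5 and 46.0 FPKM. In these 3 genes the Carm1 shRNA library lay between the control libraries. The receptors Rara, Rarg, Rxra and Rxrb differed from scramble by -0.18 to 0.23. Over the whole group, 16 of 21 genes were below scramble, where 58.1% of all genes compared were below it, and the median difference was -0.16 beside -0.03 over all genes. Against the wild-type library, however, 10 were above and 11 below with a median of -0.02, and the wild-type library itself lay a median of 0.40 below scramble on the log2 scale. Of the 21 genes 9 were below both controls, beside 34.5% of all genes. The median RA response of the 21 genes was 1.69 in the Carm1 shRNA line, 1.20 in the scramble line and 0.35 in the wild-type line. Each of these medians falls on a different gene, so their order does not show that single genes responded more in the Carm1 shRNA line. Cyp26b1, which sets the median of 1.69 there, responded by 3.98 in scramble and 3.62 in wild-type, while Stra8 went the other way. Taken gene by gene, the median difference from scramble was -0.02 with vehicle and -0.16 with RA.

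The start regions of Cyp26a1, Rarb and Cyp26b1 are shown as examples, picked after their values were seen. The first pair carried the kind of direct repeat that RAR and RXR bind, and Cyp26b1 had no such repeat in this window. Sequences are from RefSeq (build GRCm38.p6, not the build of the expression table) and run from 250 bases before to 50 bases after each gene's start, on the gene's own strand. Capitals mark a direct repeat, searched on both strands, of 2 hexamers with 5 bases between them, where a hexamer could be AGGTCA, its variant AGTTCA, its variant GGGTCA or lastly GGTTCA; the match in Cyp26a1 is on the opposite strand and that in Rarb on the strand shown, at positions -53 to -37 from the start. Coordinates are chr19:37697558-37697857 (plus strand) for Cyp26a1, chr14:16575427-16575726 (minus strand) for Rarb and chr6:84593761-84594060 (minus strand) for Cyp26b1.
Cyp26a1: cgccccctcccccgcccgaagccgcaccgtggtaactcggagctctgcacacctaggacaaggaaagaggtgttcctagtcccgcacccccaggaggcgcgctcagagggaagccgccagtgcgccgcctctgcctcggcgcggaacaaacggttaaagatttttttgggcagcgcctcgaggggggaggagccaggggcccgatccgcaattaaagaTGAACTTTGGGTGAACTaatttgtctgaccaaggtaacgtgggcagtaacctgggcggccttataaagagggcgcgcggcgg
Rarb: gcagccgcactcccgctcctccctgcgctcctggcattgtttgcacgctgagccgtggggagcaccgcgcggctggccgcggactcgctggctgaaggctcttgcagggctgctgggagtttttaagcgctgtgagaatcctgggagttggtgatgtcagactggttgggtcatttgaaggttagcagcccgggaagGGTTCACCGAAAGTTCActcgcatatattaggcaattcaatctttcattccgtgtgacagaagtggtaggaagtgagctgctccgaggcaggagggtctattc
Cyp26b1: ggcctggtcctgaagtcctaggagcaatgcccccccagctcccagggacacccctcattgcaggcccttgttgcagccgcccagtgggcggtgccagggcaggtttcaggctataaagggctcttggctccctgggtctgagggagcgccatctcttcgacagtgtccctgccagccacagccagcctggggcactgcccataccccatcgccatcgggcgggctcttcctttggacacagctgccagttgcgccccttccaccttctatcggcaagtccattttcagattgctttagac
The repeat was present in 32 of 32851 such windows (0.0974%). Among the RA handling genes compared, 15 of 21 matched a RefSeq window and 2, Cyp26a1 and Rarb, held it. Dhrs3, which also stood between the controls, had a matched window without it. Whether the repeat bears on the differences between lines was not tested. It was in 0 of the 23 matched windows of the 37 lower genes, 0 of the 26 matched windows of the 39 higher genes and 0 of 11 matched Hox windows. A match is a run of letters, not a shown binding site, and distant enhancers were not searched.

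Hox genes, which encode the transcription factors that set position along the body axis and which RA switches on in order along each cluster, were lower in the Carm1 shRNA line. Of 39 listed genes 23 were compared, 6 were at least 2-fold lower (Hoxc4, Hoxc5, Hoxc8, Hoxc9, Hoxb1 and Hoxb3), 0 were 2-fold higher and 22 were below scramble. Over all genes compared, 0.321% were 2-fold lower, 0.339% 2-fold higher and 58.1% below scramble. The median difference of the 23 Hox genes was -0.72, beside -0.03 over all genes compared.

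Hoxc4 stood at 1.91 FPKM with RA in the Carm1 shRNA line, 9.28 FPKM in the scramble line and 4.63 FPKM in the wild-type line, a difference of -1.82 from scramble. Hoxc5 stood at 1.23, 4.08 and 2.24 FPKM in the same order. Hoxc8 stood at 0.412, 2.13 and 0.973 FPKM, and Hoxc9 at 0.355, 2.05 and 0.609 FPKM. In all 4 genes the order was the same, scramble highest and the Carm1 shRNA line lowest, with wild-type in between. Hoxc8 and Hoxc9 reached the mean of 1 FPKM only through the scramble library, so they had to differ once compared. Hoxb1, among the earliest Hox genes to respond to RA, stood at 23.2, 53.3 and 29.3 FPKM, and Hoxb3 at 6.09, 14.1 and 10.5 FPKM.

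The clusters differed in extent. All 10 Hoxb genes were compared and were below both control libraries, with differences from scramble of -1.17 to -0.31 and a median of -0.73. Hoxb8, for example, stood at 22.2 FPKM in the Carm1 shRNA line against 41.5 and 38.8 FPKM in the scramble and wild-type lines. Of 9 Hoxa genes compared, 8 were below scramble with a median of -0.48. Hoxa5 stood at 87.8, 147 and 75.1 FPKM in the Carm1 shRNA, scramble and wild-type lines, so it was not below wild-type. Hoxa6 stood at 4.25, 4.34 and 5.19 FPKM and Hoxa7 at 11.9, 11.9 and 11.1 FPKM, differences of -0.02 and 0.00 from scramble. No Hoxd gene was compared. Among the 16 Hox genes under the filter, 10 were below scramble and 6 above, none over 1.07 FPKM in either library, and over all 39 the median difference was -0.31.

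The wild-type line lay between the shRNA lines for most Hox genes. It was below scramble for 19 of the 23 genes, by a median of 0.21 on the log2 scale, and the Carm1 shRNA line was below wild-type for 20 with a median of -0.41. Below both controls stood 20 of 23 Hox genes, beside 34.5% of all genes compared. The median RA response of the 23 genes, RA minus vehicle within a line, was 2.69 in the Carm1 shRNA line, 3.24 in the scramble line and 2.71 in the wild-type line. The Carm1 shRNA and wild-type medians lay close and that of scramble was highest. Each median falls on a different gene, so close medians do not show that single genes responded alike. Compared with wild-type, Hoxb3 responded less in the Carm1 shRNA line (2.69 against 3.46) and Hoxa5 more (6.27 against 5.13). With vehicle, the 23 genes had a median difference of -0.04 from scramble in the Carm1 shRNA line. Hox partners showed a smaller shift: of 14 compared, 12 were below scramble, beside 58.1% of all genes compared, and 0 passed 2-fold. Against wild-type, however, 7 were above and 7 below. Meis1, a homeodomain partner of Hox proteins, stood at 6.83, 11.9 and 5.88 FPKM in the Carm1 shRNA, scramble and wild-type lines.

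**Figure D2:**
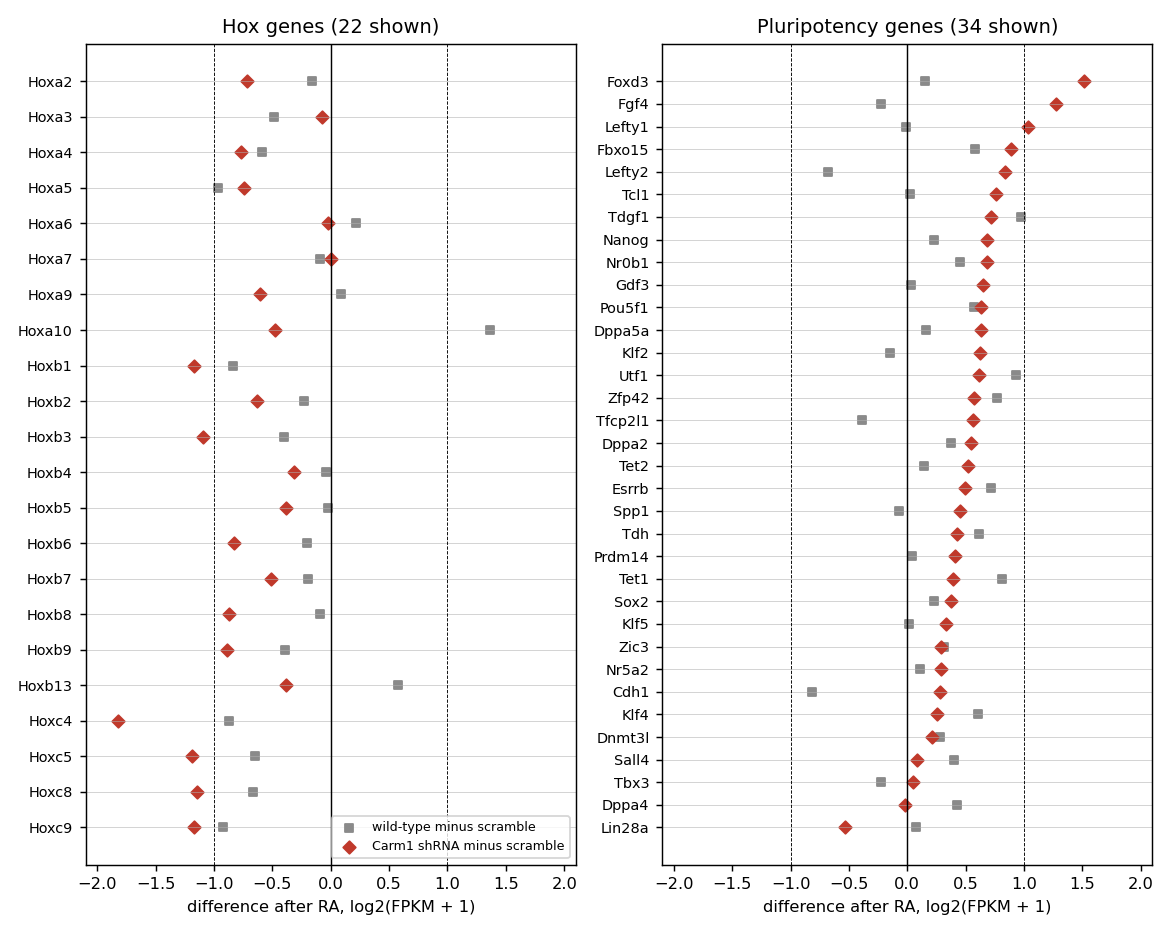
Differences after RA on the log2(FPKM + 1) scale for 22 of the 23 Hox genes compared (left) and the 34 pluripotency genes compared (right), each point from 1 library per line; red diamonds are Carm1 shRNA minus scramble, grey squares are wild-type minus scramble, and both share the scramble library. In the left panel 21 diamonds lie below 0 and in the right panel 32 lie above it, while 18 of 22 and 26 of 34 grey squares lie on those same sides.

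Genes of the pluripotent state moved the other way. Of 35 listed genes 34 were compared, and 3 were at least 2-fold higher in the Carm1 shRNA line (Foxd3, Fgf4 and Lefty1). Of the 34, 0 were 2-fold lower and 32 were above scramble. Over all genes compared, 0.339% were 2-fold higher, 0.321% 2-fold lower and 41.9% above scramble. The median difference of the 34 genes was 0.53.

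Pou5f1, which encodes OCT4, stood at 725 FPKM with RA in the Carm1 shRNA line, 467 FPKM in the scramble line and 692 FPKM in the wild-type line. Nanog stood at 595, 370 and 434 FPKM in the same order, and Sox2 at 157, 120 and 141 FPKM. All 3 core factors were highest in the Carm1 shRNA line, with wild-type in between, though Pou5f1 lay above wild-type by 0.07 only on the log2 scale. Foxd3, a forkhead factor needed by embryonic stem cells, stood at 9.74, 2.75 and 3.18 FPKM with RA and at 34.8, 25.5 and 21.1 FPKM with vehicle. Fgf4, the FGF that stem cells secrete and that primes them to differentiate, stood at 46.4, 18.6 and 15.8 FPKM with RA and at 46.3, 39.1 and 41.4 FPKM with vehicle. Its level with RA in the Carm1 shRNA line was thus that of vehicle, and both control libraries were lower with RA. Lefty1, an inhibitor of Nodal signalling, stood at 163, 79.1 and 78.3 FPKM with RA, and it was already above the controls with vehicle, at 107, 39.3 and 22.8 FPKM. The genes below scramble were Lin28a, an RNA-binding protein that blocks let-7 processing, at 16.5, 24.4 and 25.7 FPKM, and Dppa4, at 42.5, 43.1 and 58.1 FPKM.

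Against wild-type the shift was smaller: 22 of 34 genes were above it, with a median of 0.25, and 22 were above both controls, beside 28.6% of all genes compared. The 12 below wild-type included Zfp42, Esrrb, Klf4 and Tdgf1. The median RA response of the 34 genes was -0.56 in the Carm1 shRNA line, -0.76 in the scramble line and -0.60 in the wild-type line. Here too the Carm1 shRNA and wild-type medians lay close, while single genes differed in both directions. Nanog responded by 0.38 against 0.01 in wild-type, and Lin28a by -2.26 against -1.42. With vehicle the same genes had a median difference of 0.13 from scramble. Genes of the formative state, which follows the naive state, were split: of 11 compared, 5 were above and 6 below scramble and 0 passed 2-fold.

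Metallothioneins, small proteins that bind zinc and copper, were lower under both treatments. Mt1 stood at 9.78 FPKM with RA in the Carm1 shRNA line, 47.5 FPKM in the scramble line and 45.7 FPKM in the wild-type line, and at 24.4, 62.9 and 140 FPKM with vehicle. Mt2 stood at 19.07, 64.2 and 98.8 FPKM with RA and at 67.2, 212 and 327 FPKM with vehicle. The Carm1 shRNA library was the lowest of the 3 for both genes under both treatments. The differences from scramble with RA were -2.17 and -1.70. Of 14 genes of metal binding and zinc transport compared, these were the 2 past 2-fold, beside 0.66% of all genes compared. The others lay between -0.51 and 0.44. Mtf1, the zinc-sensing factor that switches metallothioneins on, differed by 0.04 and the zinc exporter Slc30a1, another of its targets, by 0.22.

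The start regions of the metallothionein pair are shown because the genes lie next to each other and moved together. Capitals mark the metal response core, TGCACNC or its variant form TGCGCNC on either strand, which is the core of the element that MTF1 binds. The windows are chr8:94178839-94179138 for Mt1 and chr8:94172368-94172667 for Mt2, both on the plus strand of GRCm38.p6, from RefSeq.
Mt1: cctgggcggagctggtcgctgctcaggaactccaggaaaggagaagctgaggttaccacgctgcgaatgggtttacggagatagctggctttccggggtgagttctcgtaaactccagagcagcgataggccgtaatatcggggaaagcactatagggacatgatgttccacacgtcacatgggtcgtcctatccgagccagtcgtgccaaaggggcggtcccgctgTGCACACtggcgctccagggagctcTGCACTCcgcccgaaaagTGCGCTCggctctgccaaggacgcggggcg
Mt2: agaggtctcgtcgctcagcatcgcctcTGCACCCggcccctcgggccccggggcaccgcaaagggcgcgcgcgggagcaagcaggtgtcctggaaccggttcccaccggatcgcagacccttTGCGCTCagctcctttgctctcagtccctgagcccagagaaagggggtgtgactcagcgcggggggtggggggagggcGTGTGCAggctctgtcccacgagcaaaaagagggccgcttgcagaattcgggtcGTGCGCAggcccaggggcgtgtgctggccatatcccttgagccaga
Mt1 held 3 cores and Mt2 held 4. At least 3 were found in 647 of 32851 windows (1.97%) and at least 1 in 8444 (25.7%). Of the 23 matched lower genes 10 held at least 1, as did 10 of the 26 matched higher genes.

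Few of the lower genes were also 2-fold lower with vehicle. With vehicle 18 genes (0.169%) were 2-fold higher and 14 (0.131%) lower in the Carm1 shRNA line, 32 of 10660 in all (0.3%). Of the 37 genes lower with RA, 6 were 2-fold lower with vehicle too (Carm1, Mt1, Mt2, Dmrt1, Stra8 and Slc9b1), and 19 were under 1 FPKM in both vehicle libraries, where a lower level could not be seen. Of the 39 higher genes, 3 were 2-fold higher with vehicle (Pof1b and Lefty1 among them), 16 were at least 1.5-fold higher and 36 were above scramble by some amount, where 0.999% and 58.6% of the 11513 genes compared were so with vehicle. Their median difference with vehicle was 0.50, and that of the lower genes was -0.08. No test of the difference between treatments was possible with 1 library each. Slc9b1 and Pof1b fall outside the rule for named genes and were picked from that count after their values were seen.

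**Figure D3:**
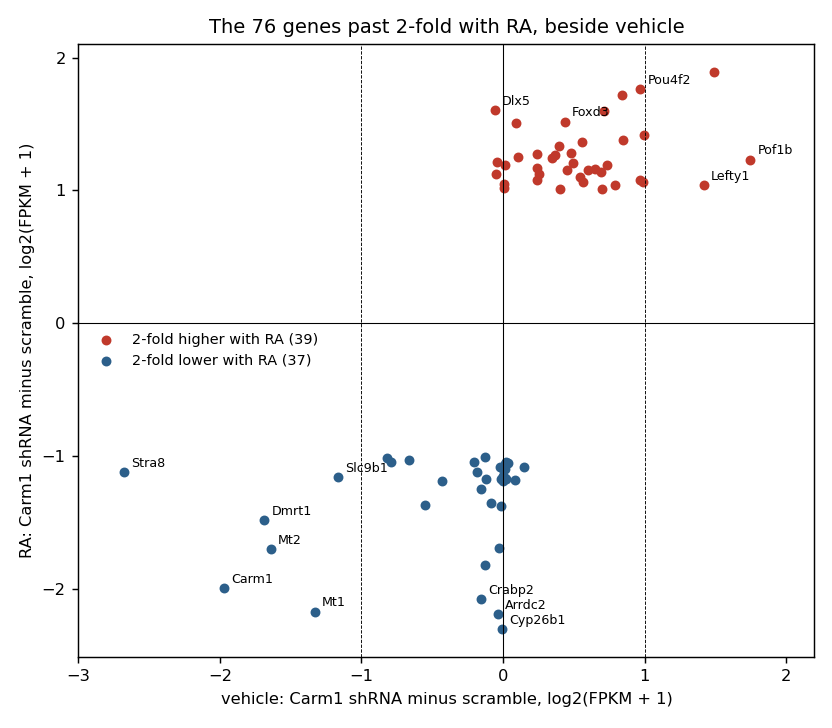
Carm1 shRNA minus scramble with vehicle (horizontal axis) and with RA (vertical axis) for the 76 genes at least 2-fold apart with RA, both on the log2(FPKM + 1) scale, 1 library per group; dashed lines mark 2-fold with vehicle. Of the 37 lower genes (blue) 6 lie left of the dashed line at -1, and of the 39 higher genes (red) 3 lie right of the line at 1.

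Among the other genes named by size, several lower ones were induced by RA in the controls. Arrdc2, an arrestin domain protein, stood at 4.39 FPKM with RA in the Carm1 shRNA line, 23.6 FPKM in the scramble line and 11.9 FPKM in the wild-type line, and at 8.05, 8.29 and 7.28 FPKM with vehicle. It was higher with RA than with vehicle in both control lines and lower in the Carm1 shRNA line. Dusp4, a phosphatase that turns off ERK, stood at 3.05, 9.34 and 10.1 FPKM with RA in the same order of lines. Car3, a carbonic anhydrase, stood at 4.32, 12.7 and 8.87 FPKM, and Cdc42ep1, an effector of the GTPase CDC42, at 5.23, 13.2 and 10.4 FPKM. For these 4 genes both controls lay above the Carm1 shRNA library. Ednrb, the endothelin B receptor, stood at 1.65, 5.85 and 1.81 FPKM and Shisa3 at 0.890, 3.28 and 1.08 FPKM, so here scramble alone was high. Dmrt1, a factor of testis and germ cells, stood at 5.53, 17.2 and 22.5 FPKM with RA and at 7.12, 25.1 and 22.4 FPKM with vehicle.

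The higher genes named by size were of many kinds. Pou4f2, a POU factor of retinal ganglion cells, stood at 8.83 FPKM with RA in the Carm1 shRNA line, 1.90 FPKM in the scramble line and 2.25 FPKM in the wild-type line, and Lgals3, the lectin galectin-3, at 9.86, 2.31 and 2.22 FPKM. Both were also highest in the Carm1 shRNA line with vehicle, at 36.2 and 21.2 FPKM. Dlx5, a homeobox gene of craniofacial and bone development, stood at 3.50, 0.477 and 0.404 FPKM with RA and at most 0.0716 FPKM with vehicle. Hnf4a, a master regulator of liver and visceral endoderm, stood at 5.18, 1.60 and 0.559 FPKM with RA. Myl7, an atrial myosin light chain, stood at 60.2, 22.8 and 25.3 FPKM, and Igfbp7, a secreted binder of insulin-like growth factors, at 15.7, 5.85 and 2.82 FPKM. Sct, the gut hormone secretin, stood at 14.3, 5.35 and 3.64 FPKM, Akr1c18, a steroid-metabolizing reductase, at 4.399, 0.900 and 0.475 FPKM and R3hdml at 18.8, 6.58 and 4.15 FPKM. Cdh3, P-cadherin, stood at 7.38, 2.32 and 2.38 FPKM. In each of these 10 genes both control libraries lay below the Carm1 shRNA library. Cdkn1c, an imprinted inhibitor of the cell cycle, did not follow: it stood at 15.6, 4.48 and 24.9 FPKM, so wild-type was highest, and AU018091, at 21.8, 7.52 and 20.3 FPKM, was just above wild-type.

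**Figure D4:**
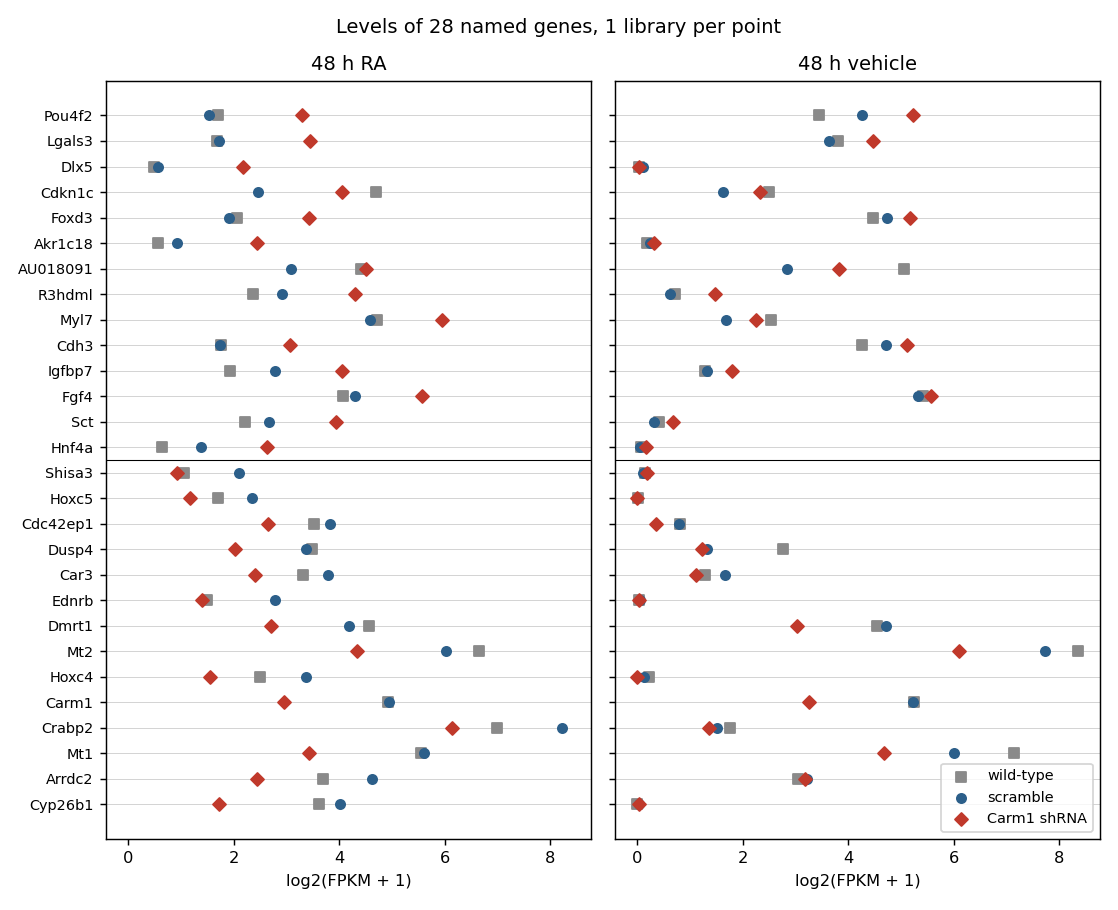
Levels of 14 higher (above the line) and 14 lower (below the line) genes named by size, as log2(FPKM + 1) with RA (left) and with vehicle (right), 1 library per point for the wild-type (grey squares), scramble (blue circles) and Carm1 shRNA (red diamonds) lines. With RA the red diamond lies beyond both other points in all 14 lower genes and in 13 of the 14 higher genes, the exception being Cdkn1c.

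Over the 76 genes, 36 of the 39 higher ones were above wild-type as well and 23 by at least 2-fold (23 genes or 0.2% of those compared were 2-fold above both controls), and all 37 lower ones were below wild-type, 15 by at least 2-fold (0.13%). Since these genes were picked by an extreme value in the Carm1 shRNA or the scramble library, that count gives no support of its own.

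Genes were also grouped by how the wild-type line responded to RA, a choice that used neither library of the comparison. Over all genes compared, 0.321% were 2-fold lower and 0.339% 2-fold higher in the Carm1 shRNA line than in scramble, and 41.9% lay above scramble. Of 729 genes at least 2-fold higher with RA in the wild-type line, 21 were 2-fold lower and 9 were 2-fold higher in the Carm1 shRNA line than in scramble, and 65.6% were below scramble, beside 58.1% of all genes compared. Their median difference was -0.14. Of 113 genes at least 2-fold lower with RA in wild-type, 9 were 2-fold higher and 2 were 2-fold lower, 78.8% were above scramble, and the median was 0.35. The lean grew with the size of the response: the 33 genes with a wild-type response over 3 on the log2 scale had a median of -0.38 and 87.9% were below scramble, the 102 genes between 2 and 3 had a median of -0.25, and the 14 genes with a response under -2 had a median of 0.72. With vehicle, the RA-induced genes differed by a median of -0.01 and the RA-repressed genes by 0.19.

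The control chosen decides the direction for the induced genes. With the wild-type library in place of scramble their median was 0.14, so RA-induced genes were highest in the scramble line, lower in the Carm1 shRNA line and lower again in wild-type. For the repressed genes the median against wild-type was 0.15, the same direction as against scramble. The wild-type library with RA helped to choose these genes, so the comparison with it is not independent of the choice.

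**Figure D5:**
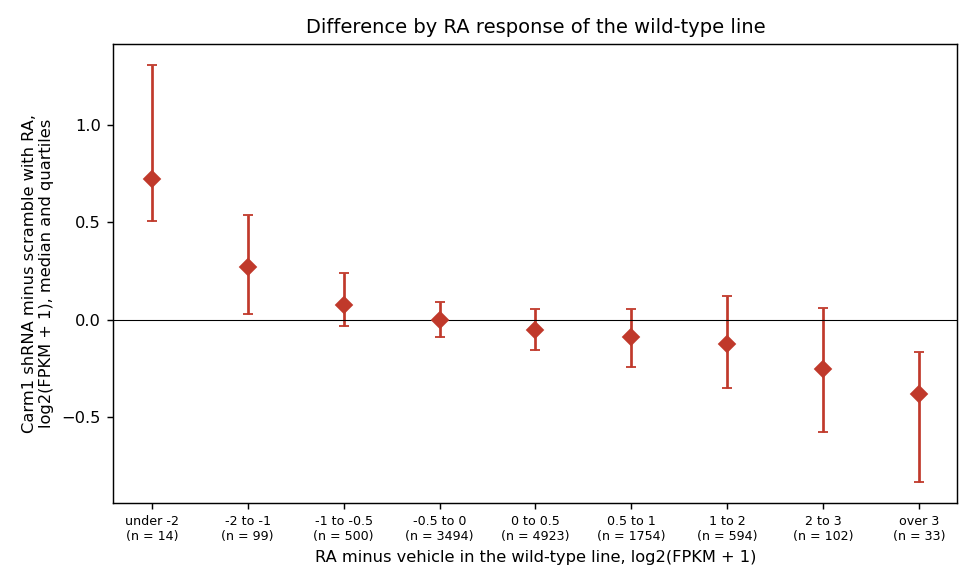
Genes compared, binned by the RA response of the wild-type line (RA minus vehicle, log2(FPKM + 1), horizontal axis); diamonds are the median and bars the quartiles over genes of Carm1 shRNA minus scramble with RA (vertical axis, same scale). The median goes from 0.72 in the 14 genes with a response under -2 to -0.38 in the 33 genes with a response over 3, and it is near 0 for responses between -0.5 and 0.

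Signalling genes shifted in small numbers. For the lists here and below, the background over all genes compared was 0.339% 2-fold higher and 0.321% 2-fold lower. Of 23 genes of FGF and ERK signalling compared, Fgf4 was the 1 higher and Dusp4 the 1 lower past 2-fold, and Fgf15, an FGF of the early embryo, stood at 2.57, 0.789 and 1.69 FPKM in the Carm1 shRNA, scramble and wild-type lines, a difference of 1.00 that rounds to the threshold. Of 19 genes of Nodal, BMP and WNT signalling, Lefty1 and Msx2 were 2-fold higher and 13 were above scramble, beside 41.9% of all genes, with a median of 0.19. With vehicle their median difference from scramble was already 0.25. Against wild-type with RA 14 were above with a median of 0.28. Msx2, a homeobox target of BMP signalling, stood at 27.5, 12.0 and 5.31 FPKM. Id1, another BMP target, stood at 172, 114 and 66.4 FPKM, and Nodal at 54.0, 36.3 and 36.6 FPKM. LIF and STAT3 genes showed 0 of 9 past 2-fold, with a median of 0.01.

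Lineage genes went in several directions. Of 18 genes of extraembryonic endoderm compared, Hnf4a was 2-fold higher and Pth1r, a parathyroid hormone receptor of parietal endoderm, was 2-fold lower, and 13 were below scramble, beside 58.1% of all genes, with a median of -0.27. That lean depends on the control: 10 of the 18 were above wild-type with a median of 0.04, wild-type itself was below scramble for 12 of them, and the median against scramble was -0.155 with median-of-ratios scaling. Gata6, which directs primitive endoderm, stood at 5.34, 8.55 and 7.15 FPKM in the Carm1 shRNA, scramble and wild-type lines. Of 13 neural genes, Pou4f2 was 2-fold higher and Pax6, a factor of neural progenitors, 2-fold lower; Pax6 stood at 0.749, 2.60 and 7.72 FPKM. Over the list 7 were above and 6 below scramble. Tubb3, a neuronal tubulin, stood at 117, 72.0 and 65.9 FPKM and Stmn2, a microtubule regulator of axons, at 167, 104 and 92.1 FPKM, while the progenitor genes Sox1 and Nes stood at 9.57, 13.8 and 33.0 FPKM and at 5.23, 7.45 and 5.51 FPKM. Of 11 germ cell genes Dmrt1 and Stra8 were 2-fold lower, and Rec8, a cohesin of meiosis, stood at 23.0, 44.6 and 29.5 FPKM. Of 4 mesendoderm and mesoderm genes compared, Meox1, a factor of somites, was 2-fold lower, at 1.21, 3.99 and 4.39 FPKM, and of 6 trophoblast and keratin genes 0 passed.

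Genes of general cell function mostly stayed within 2-fold. Coactivators, corepressors and other CARM1 partners had 0 of 23 past 2-fold, ranging from -0.58 for Nrip1, a corepressor of nuclear receptors that RA induces, to 0.32. Ribosomal proteins lay between -0.17 and 0.13 in all 30 genes. There were 0 of 21 past 2-fold in the p53 and stress group, 0 of 16 among polycomb proteins and H3K27 demethylases and 0 of 6 among fibroblast genes. Proliferation genes had 1 of 27 past 2-fold, Cdkn1c. Glycolysis and hypoxia genes had 1 of 22, Pfkp, a phosphofructokinase, at 20.3, 9.07 and 12.3 FPKM in the Carm1 shRNA, scramble and wild-type lines. Of these 22 genes 19 were above scramble, beside 41.9% of all genes compared, with a median of 0.17. Against wild-type 14 were above, with a median of 0.12. Among 11 interferon and complement genes, 1 was 2-fold higher and 1 lower; the latter was C3, the central complement protein, at 0.205, 2.89 and 6.05 FPKM. Of 15 imprinted genes, Cdkn1c and Phlda2 were 2-fold higher and Grb10 was lower. Phlda2, which restrains placental growth, stood at 9.78, 3.64 and 6.91 FPKM, and Grb10, an adaptor that restrains growth, stood at 30.7, 64.4 and 194 FPKM, so the wild-type line was far from both shRNA lines for the latter.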

How the data were processed

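RNA sequencing (single-end 51-nucleotide reads) of 6 libraries was used, grouped by the labelled line and treatment, with 1 library per group. The deposited values are FPKM, obtained by the authors from TopHat2 and Cufflinks with the mm9 build, per the submitters' processing notes. Tool versions, strand use and any scaling between libraries were not given in the sources used here. Of 20793 rows, 2 with a failed estimate were left out, and of rows that repeat a symbol the one with the highest mean was kept (331 dropped), leaving 20460 genes. Those averaging 1 FPKM or more in the 2 libraries compared were kept (11513). Differences are in log2(FPKM + 1), and a gene was counted at 2-fold or more. With 1 library per group no test was run, and no SD within a group exists. FPKM hold no read counts, so depth was estimated from the value of 1 read in low genes and GENCODE transcript lengths, and no counting intervals are given.

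The genes named are the 15 largest differences in each direction past 2-fold, without small RNAs and symbols shaped like clone names (a pattern that also takes out C3), and members of 25 gene lists. A few of these genes are not reported here. The comparison, the lists and the rule were chosen with earlier results of these data known. Starts in the deposited table count from 0 and had 1 added. Promoter windows of 300 bases came from RefSeq (GRCm38.p6), matched by symbol. Alternatives changed the pseudocount, the filter, the scaling, the handling of repeated symbols, the fold threshold and the control line. The scripts, in Python 3.11.15 with pandas 2.3.3 and numpy 2.4.6, were tested on simulated data.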

Additional observations from a re-analysis of the deposited data

Results flagged for a closer look

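Of the 76 genes at least 2-fold apart with RA, 8 drew attention because the sign of their RA response in the Carm1 shRNA line was the opposite of that in both control lines. The 76 genes were picked by RA levels that also enter these responses, so opposite signs are partly built into the choice and nothing is read from their number. Responses are RA minus vehicle within a line, on the log2(FPKM + 1) scale. Fgf4, the FGF ligand of stem cells, changed by 0.00448 in the Carm1 shRNA line, so it stayed level there, against -1.03 in the scramble line and -1.33 in the wild-type line. Arrdc2 changed by -0.748 in the Carm1 shRNA line, against 1.41 in the scramble line and 0.64 in the wild-type line. Gja1, the gap junction protein connexin 43, changed by -0.384, against 0.56 and 0.74, and Gpc3, a cell surface glypican, by -0.265, against 0.97 and 1.05. Grb10, the growth-restraining adaptor, changed by -0.032, close to 0, against 0.22 and 0.86. In the other direction, Krt42, a keratin, changed by 0.589, against -0.25 and -0.76, Adap1 by 0.248, against -0.22 and -0.13, and Ttpa, a vitamin E transfer protein, by 0.17, against -0.44 and -0.43. Apart from Fgf4, Arrdc2 and Grb10, these genes fall outside the rule for named genes and were picked by this pattern after their values were seen. None of these differences between lines was tested, since each line had 1 library per treatment.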

How the results depend on the processing

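No paired analysis was possible because each group held 1 library and no replicates were numbered. The counts of 2-fold genes (39 higher, 37 lower) depend on the settings: 100 and 94 with a pseudocount of 0.1, 69 and 61 with 0.5, 25 and 23 with a mean of at least 5 FPKM, 237 and 239 at 1.5-fold, 5 and 8 at 3-fold, and 177 and 105 with wild-type as the control. Quantile normalization gave 59 higher genes, and the mean of both controls, added after seeing the data, gave 58 lower genes. The median of RA handling genes, -0.16, was -0.0668 with no filter, -0.0218 against wild-type and -0.0577 against the mean of the controls. The Hox median, -0.72, was -0.312 with no filter and -0.408 against wild-type. The pluripotency median, 0.53, was 0.254 against wild-type and 0.333 against the mean of the controls. For genes that RA induced in wild-type, the median, -0.14, reversed to 0.145 against wild-type and was -0.0156 against the mean of the controls; for repressed genes, 0.35 became 0.234 with no filter and 0.147 against wild-type. Changing the pseudocount, scaling or repeated symbols kept all 30 named genes past 2-fold. Against wild-type 20 kept direction and threshold, 9 fell short and Cdkn1c reversed, to -0.642; against the mean of the controls 6 fell short. Of 21 other lists, the median changed sign in 11 against wild-type, 7 against the mean of the controls, 6 with median-of-ratios scaling, 2 with quantile normalization and 0 with either pseudocount. The cause was not tested. Of the 37 lower genes 7 were under 1 FPKM in the Carm1 shRNA library, and of the 39 higher genes 7 were under 1 FPKM in scramble.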

Other observations

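A few of the 76 genes lie outside the lists and the rule for names and were picked after their values were seen; values are for the Carm1 shRNA, scramble and wild-type lines with RA in that order. Nr2f2, an orphan nuclear receptor, stood at 0.292, 1.77 and 0.683 FPKM. Gja1, the gap junction protein connexin 43, stood at 8.30, 19.3 and 17.6 FPKM, and Gpc3, a cell surface glypican, at 9.90, 22.1 and 16.2 FPKM. With vehicle, Gja1 stood at 11.1, 12.8 and 10.1 FPKM and Gpc3 at 12.1, 10.8 and 7.34 FPKM. Vamp3, a protein of vesicle fusion, stood at 28.0, 57.5 and 56.2 FPKM with RA and at 19.97, 36.04 and 34.2 FPKM with vehicle, lowest in the Carm1 shRNA line under both treatments. Ntf3, the growth factor neurotrophin 3, stood at 2.84, 0.703 and 0.160 FPKM with RA, and Fmo1, a monooxygenase, at 5.16, 1.70 and 1.24 FPKM.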
